A study of Mus musculus with 114 samples.

Results

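The genes described here are 6 matrix metalloproteinases (MMPs), Mmp2, Mmp9, Mmp11, Mmp12, Mmp14 and Mmp19, and the 4 tissue inhibitors of metalloproteinases (TIMPs), Timp1, Timp2, Timp3 and Timp4. They were chosen by symbol, and all 10 were found once among the 29132 genes listed. Their mRNA was measured by RNA-seq in adipocytes of the perigonadal fat of male C57BL/6 mice (C57BL/6J in the study's methods), taken as the cells that float after collagenase digestion. From 6 weeks of age the animals received either chow (CD) or a diet that draws most of its calories from fat (HFD), with no gene altered in any group. There were 6 CD and 6 HFD mice after 8 weeks of diet, 6 CD and 6 HFD mice after 20 weeks, and 8 CD and 6 HFD mice after 34 weeks. The chow was 1 of 2 control diets, and which mouse received which was not given. Time on diet and age rise together in every group, so they cannot be told apart. The comparisons ask how the genes differed between diets at each time, between times within a diet, and whether the diet difference itself differed between times.

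MMPs are zinc-dependent endopeptidases that cut collagens, elastin, laminins and other proteins of the extracellular matrix, and most are made as inactive proenzymes. TIMPs bind the active site of MMPs and block it, and TIMP2 also takes part in the activation of the MMP2 proenzyme by MMP14 at the cell surface. In adipose tissue these proteins take part in the remodelling of the matrix around growing adipocytes, and they are made by adipocytes, progenitors, endothelial cells and macrophages in differing amounts.

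All 10 genes passed the filter on low values, a mean log2(CPM + 1) above 2.0 over all mice, where CPM scales the reads on genes of each mouse to a common total of 1000000. Of the 6 MMPs, Mmp2 (chr8:92827291-92853420), Mmp9 (chr2:164940780-164955850), Mmp12 (chr9:7344381-7369499), Mmp14 (chr14:54431612-54445364) and Mmp19 (chr10:128790910-128800824) lie on the plus strand and Mmp11 (chr10:75923222-75936496) on the minus strand. Of the TIMPs, Timp1 (chrX:20870166-20874735) and Timp3 (chr10:86300372-86349506) lie on the plus strand, and Timp2 (chr11:118301069-118355740) and Timp4 (chr6:115241892-115252205) on the minus strand. These are GENCODE vM21 positions on GRCm38, the build used by the authors with an earlier GENCODE release. Timp1, Timp3 and Timp4 lie within or beside the synapsin genes Syn1, Syn3 and Syn2 on the opposite strand, and 1733 exon bases of Timp3 (21.3% of them) are shared with Syn3. Mmp19 shares 789 exon bases (22.3%) with Tmem198b and Mmp11 shares 155 (5.58%) with Chchd10, again on opposite strands. The study's methods count only reads that overlap a gene unambiguously, and the strand setting was not given. Reads in these stretches may thus have been left out or assigned by strand. Syn3 had a mean of 0.626 CPM and Tmem198b of 9.97 CPM over all mice, low beside Timp3 and Mmp19. Chchd10 had 77.1 CPM, far above Mmp11. What the shared stretches did to the values was not tested.

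RefSeq windows upstream of a start site were at hand for 7 of the 10 genes, not for Mmp2, Mmp9 and Mmp19. The 250 bases before the start (GRCm38.p6) are shown for Mmp12 and Mmp14, which rose together on HFD at 20 weeks, and for Timp4, which fell on HFD at 34 weeks. The Mmp12 window, chr9:7347124-7347373 on the plus strand, is the one before the second of its 2 RefSeq starts. The Mmp14 window is chr14:54431348-54431597 on the plus strand and the Timp4 window chr6:115252206-115252455 on the minus strand. Capitals mark matches on either strand to TGANTCA, the core of the AP-1 site bound by Fos and Jun proteins, and to GGGCGG, the GC box bound by Sp1.
Mmp12: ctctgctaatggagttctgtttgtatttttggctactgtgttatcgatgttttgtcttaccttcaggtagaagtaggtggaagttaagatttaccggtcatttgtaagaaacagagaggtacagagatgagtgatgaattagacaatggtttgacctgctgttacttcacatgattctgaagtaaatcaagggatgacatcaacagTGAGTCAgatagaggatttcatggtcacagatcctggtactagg
Mmp14: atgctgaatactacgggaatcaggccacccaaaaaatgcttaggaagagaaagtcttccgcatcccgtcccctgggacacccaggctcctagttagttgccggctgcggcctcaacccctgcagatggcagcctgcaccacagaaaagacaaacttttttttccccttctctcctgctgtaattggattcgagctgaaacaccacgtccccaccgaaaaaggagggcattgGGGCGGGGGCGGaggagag
Timp4: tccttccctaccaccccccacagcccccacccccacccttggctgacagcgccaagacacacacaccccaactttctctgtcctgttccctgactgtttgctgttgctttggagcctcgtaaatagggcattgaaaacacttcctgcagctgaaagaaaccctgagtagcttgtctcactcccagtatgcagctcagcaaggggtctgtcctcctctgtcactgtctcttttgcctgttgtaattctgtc

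The printed Mmp12 window held 1 TGANTCA match, from 44 to 38 bases before the start, and no GC box. The window before the first Mmp12 start held neither. TGANTCA was found in 6.73% of the 32526 RefSeq windows of this length, and in none of the other 7 windows of these genes. The Mmp14 window held 2 GC boxes within 19 bases of the start, and GGGCGG was found in 33% of all windows. The Timp4 window held neither, and TATAAA, found in 12.3% of all windows, was in none of the windows of these genes.

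Before the members are described, the libraries and cells need a word. The libraries held 9275711 to 15480388 reads on genes (median 12522298), a single read equals 0.0646 to 0.108 CPM, and at 8 weeks every HFD library was deeper than every CD library. The 8 adipocyte markers summed to 15580 to 66470 CPM in all mice, so the labelled cell type was present throughout. Their sum was 48040 to 60400 CPM on CD against 29110 to 46810 on HFD at 8 weeks and 42080 to 66470 against 24070 to 35620 at 20 weeks, with every HFD mouse below every CD mouse, and 29720 to 61340 against 15580 to 37160 at 34 weeks, where the ranges overlapped. Of the 8 markers 1, 6 and 7 were called lower on HFD at the 3 times, where 15.1%, 18.7% and 15.7% of all genes tested were. The 1 called at 8 weeks was Cfd, with a mean of 17210 CPM on CD and 3483 CPM on HFD. It had 19950 and 1307 CPM at 20 weeks and 6877 and 965 CPM at 34 weeks, so the sums partly follow this gene. Markers of other cells were also present. Of the macrophage markers tested 4, 6 and 8 were called higher on HFD at 8, 20 and 34 weeks and 1, Cd163, lower at 20 weeks, and of 7 progenitor and fibroblast markers tested 5, 7 and 4 were called higher. Over all genes tested the shares called higher were 29.8%, 38.3% and 27.5%. The 9 macrophage markers listed (of 10) summed to 226 to 936 CPM in CD and 516 to 1221 in HFD mice at 8 weeks, 799 to 1764 and 1783 to 4007 at 20 weeks, and 395 to 3974 and 1668 to 5465 at 34 weeks. The 7 markers of lipid-associated macrophages, among them Trem2, Gpnmb and Itgax, summed to 212 to 519 and 494 to 2440, to 143 to 1694 and 3581 to 9266, and to 405 to 6088 and 3695 to 11730 CPM in the same groups. T cell markers reached at most 3.23 CPM and B cell markers 5.82 CPM in sum, and Ly6g of the 6 neutrophil markers had no read. CD mouse 1 at 20 weeks and CD mouse 5 at 34 weeks stood apart from their groups with 1694 and 6088 CPM of lipid-associated macrophage markers against highest values of 399 and 3984 in the others. Diet differences of Mmp2, Mmp12, Mmp14, Timp2 and Timp4 are also given without both, for Mmp14 at 34 weeks only. Changes from 8 to 34 weeks in CD mice are given with mouse 5 included.

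Among the members, 5 of 10 were called at an adjusted p under 0.05 at 8 weeks, where 44.9% of the 10343 genes tested were, 7 of 10 at 20 weeks (57%) and 7 of 10 at 34 weeks (43.2%). The tests were limma's moderated test on log2(CPM + 1) with Benjamini-Hochberg adjustment over all genes tested. At 8 weeks 3 members were higher and 2 lower on HFD, at 20 weeks 6 were higher and 1 lower, and at 34 weeks 6 were higher and 1 lower. Over all genes the shares called higher were 29.8%, 38.3% and 27.5% and the shares called lower 15.1%, 18.7% and 15.7%. The diets did not overlap in any mouse for 3, 6 and 1 members at 8, 20 and 34 weeks, against 22.8%, 37.2% and 2.46% of all genes tested. The median diet difference of the members was 0.30, 1.00 and 0.80 on the log2 scale, and that of all genes tested 0.11, 0.14 and 0.07. With trimmed mean of M-values (TMM) scaling the latter medians moved to 0.00, -0.05 and -0.01, and the split of all calls from 3957 higher and 1937 lower to 2801 higher and 3249 lower at 20 weeks, from 3083 and 1565 to 2294 and 2306 at 8 weeks, and from 2840 and 1628 to 2290 and 2254 at 34 weeks. The differences of the members below are on the scale of the deposited CPM. TMM scaling turned the sign of Mmp19 at 20 weeks and of no other member in the diet comparisons.

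**Figure D1:**
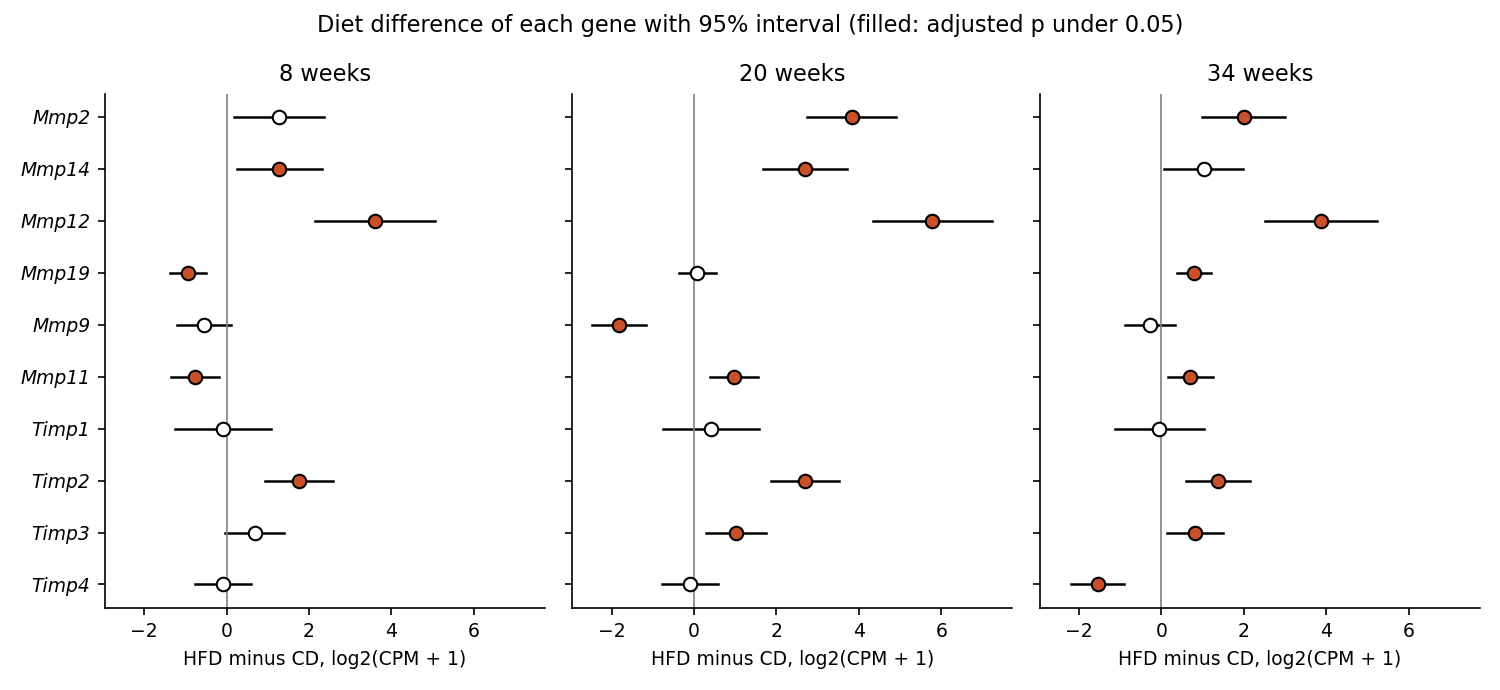
HFD minus CD difference of each gene in log2(CPM + 1) at 8, 20 and 34 weeks, with 95% intervals from the fit over all 38 mice; filled points have an adjusted p under 0.05. Mmp12 has the largest difference at each time, 3.60, 5.78 and 3.88, whereas Mmp9 lies at -1.81 at 20 weeks and Timp4 at -1.55 at 34 weeks.

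Mmp12 encodes macrophage metalloelastase, an elastin-cutting enzyme known mainly from macrophages. Its lowest, median and highest values were 4.35, 14.2 and 36.7 CPM on CD, and 84.1, 198 and 411 CPM on HFD at 8 weeks. At 20 weeks they were 8.10, 13.7 and 540.2 CPM on CD, and 617, 1626 and 3176 CPM on HFD. At 34 weeks they were 20.1, 83.1 and 292 CPM on CD, and 677, 1341 and 2529 CPM on HFD. No CD mouse reached the lowest HFD mouse at any time, and the 540.2 CPM of CD mouse 1 at 20 weeks was far from the 8.10 to 46.5 CPM of the other 5. HFD mice were higher by 3.60 ± 0.71 (SE; adjusted p = 0.000196) on the log2 scale at 8 weeks, by 5.78 ± 0.71 (adjusted p = 1.18e-07) at 20 weeks and by 3.88 ± 0.67 (adjusted p = 6.98e-05) at 34 weeks, and in 6 of 6 HFD mice each time. Without the mice that stand apart the differences were 6.63 at 20 and 4.13 at 34 weeks. Over all 49 alternatives the 20 week difference was 3.95 to 6.63 and the 34 week difference 2.32 to 4.13. In CD mice Mmp12 rose from 8 to 34 weeks by 2.48 ± 0.67 (adjusted p = 0.00169), in all 8 mice against the 8 week mean, with ranges that overlapped. With 1 mouse left out this rise was 2.18 to 2.77. In HFD mice it rose by 3.12 ± 0.71 (adjusted p = 0.00129) from 8 to 20 weeks and by 2.76 ± 0.71 (adjusted p = 0.00169) to 34 weeks, with no overlap of either time with 8 weeks.

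The genes with the most similar variation within groups were Itgax (Pearson r = 0.97), Rnf128 (0.93) and Stac2 (0.92), taken over the deviations of 38 mice from their group means. Itgax, which encodes the integrin CD11c of macrophages and dendritic cells, is also among the markers of lipid-associated macrophages counted here. With the mean log2 level of the 9 macrophage markers as a covariate, which itself differs between diets, the Mmp12 difference was 2.41 at 8, 3.99 at 20 and 2.32 at 34 weeks, with adjusted p of 0.00158, 1.30e-05 and 0.0112. The 9 markers include none of the 7 lipid-associated macrophage markers. Those had a median diet difference of 5.07 at 20 weeks, against 2.00 for the macrophage markers. The part of lipid-associated macrophages in the Mmp12 values was not tested. The covariate ended the 3 calls of Mmp12 between times, with differences of 0.84 (adjusted p = 0.224) for 34 against 8 weeks on CD, and 1.43 (adjusted p = 0.172) and 0.75 (adjusted p = 0.407) for 20 and 34 against 8 weeks on HFD. In bulk RNA, fewer or more cells of a type and less or more RNA per cell cannot be told apart.

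Mmp2 encodes gelatinase A, which cuts denatured collagen and type IV collagen, and Mmp14 encodes MT1-MMP, a membrane-bound collagenase and the activator of the MMP2 proenzyme. For Mmp2 the lowest, median and highest values were 1.82, 2.39 and 6.30 CPM on CD, and 1.74, 9.28 and 18.2 CPM on HFD at 8 weeks. They were 0.515, 2.81 and 14.1 CPM on CD, and 32.1, 56.3 and 80.2 CPM on HFD at 20 weeks, and 1.97, 3.68 and 59.1 CPM on CD, and 11.7, 25.2 and 42.1 CPM on HFD at 34 weeks. The diets were fully apart at 20 weeks only, and the highest CD values at 20 and 34 weeks belong to the mice that stand apart. The difference was 1.28 ± 0.53 (95% interval 0.19 to 2.36, adjusted p = 0.0501) at 8 weeks, which missed the threshold, 3.82 ± 0.53 (adjusted p = 6.17e-07) at 20 weeks and 1.99 ± 0.50 (adjusted p = 0.00208) at 34 weeks. Leaving out the 2 CD mice that stand apart gave 1.28 (adjusted p = 0.00495), 4.22 and 2.46, so that Mmp2 was then called at 8 weeks too. Neither mouse is of 8 weeks, so the difference there stayed the same and the spread shared by all groups in the fit changed. On whole reads the 34 week difference was 1.275 by edgeR (adjusted p = 0.0771) and 1.273 by DESeq2 (adjusted p = 0.0649), neither called.

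Mmp14 showed the same order of groups. At 8 weeks the lowest, median and highest values were 2.11, 2.97 and 6.58 CPM on CD, and 2.27, 13.1 and 21.6 CPM on HFD. At 20 weeks they were 3.31, 6.76 and 29.2 CPM on CD, and 33.8, 59.7 and 72.3 CPM on HFD, and at 34 weeks 4.15, 9.52 and 71.9 CPM on CD, and 12.5, 31.2 and 42.9 CPM on HFD. Diets overlapped at 8 and 34 weeks, and at 34 weeks CD mouse 5 exceeded every HFD mouse. The difference was 1.28 ± 0.51 (adjusted p = 0.0374) at 8 weeks, 2.70 ± 0.51 (adjusted p = 3.43e-05) at 20 weeks and 1.03 ± 0.47 (95% interval 0.07 to 1.99, adjusted p = 0.075) at 34 weeks, the last not called. Without both CD mice that stand apart it was 1.38 (adjusted p = 0.00385) at 34 weeks. The 8 week call was lost when any of CD mice 1, 2, 3 and 5 or HFD mice 3, 4, 5 and 6 was left out, with differences of 1.08 to 1.26 and adjusted p of up to 0.104.

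Within groups Mmp2 and Mmp14 varied together (r = 0.90 over 38 mice), and each also varied with Timp2 (r = 0.82 and 0.84). Closest to Mmp2 among all genes tested were Pdgfra (r = 0.95), which encodes the PDGF receptor that marks adipose progenitors, Cpxm1 (0.94) and Pla1a (0.94). Closest to Mmp14 were Fyn (0.92), Mmp2 and Actr2 (0.90). The 8 progenitor and fibroblast markers summed to 149 to 254 CPM in CD and 367 to 672 CPM in HFD mice at 20 weeks, and 482 CPM in CD mouse 5 at 34 weeks against 122 to 180 CPM in the other CD mice. Dcn had a mean of 198 CPM over all mice and Lum, the next, 26.7 CPM, so the sums largely follow Dcn. It is also counted among the matrix substrates below. The part of these markers in the Mmp2 and Mmp14 values was not tested. With the macrophage covariate Mmp2 differed by 0.32, 2.38 and 0.74 and Mmp14 by 0.30, 1.21 and -0.26 at the 3 times, past the threshold at 20 weeks only (adjusted p = 9.98e-05 and 0.0118).

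In HFD mice Mmp2 rose by 2.62 ± 0.53 (adjusted p = 0.000499) and Mmp14 by 2.34 ± 0.51 (adjusted p = 0.000774) from 8 to 20 weeks. From 8 to 34 weeks Mmp2 rose by 1.47 ± 0.53 (adjusted p = 0.021) and Mmp14 by 1.30 ± 0.51 (adjusted p = 0.0306) in HFD mice, calls that were lost with edgeR (adjusted p = 0.0759 and 0.0733) and with DESeq2 (0.0557 and 0.0525). Leaving out HFD mouse 2 of 8 weeks or 3 of 34 weeks also ended the former (1.13 and 1.31), and leaving out HFD mouse 1 or 2 of 8 weeks or 2, 3 or 5 of 34 weeks the latter (0.94 to 1.19). In CD mice Mmp14 rose by 1.55 ± 0.47 (adjusted p = 0.00486) from 8 to 34 weeks. With the macrophage covariate none of these 5 differences between times was called. On HFD, Mmp2 was then at 1.26 (adjusted p = 0.0761) for 20 and -0.15 (adjusted p = 0.83) for 34 against 8 weeks, and Mmp14 at 0.94 (adjusted p = 0.123) and -0.37 (adjusted p = 0.496). On CD, Mmp14 was at 0.19 (adjusted p = 0.661) for 34 against 8 weeks.

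Mmp19, a secreted protease that cuts basement membrane proteins, had the highest median per kilobase of the 6 MMPs in each CD group. The lowest, median and highest mouse had 483, 591 and 722 CPM on CD, and 252, 302 and 389 CPM on HFD at 8 weeks. They were 285, 442 and 539 CPM on CD, and 284, 449 and 562 CPM on HFD at 20 weeks, and 92.3, 182 and 247 CPM on CD, and 146, 318 and 451 CPM on HFD at 34 weeks. All HFD mice lay below all CD mice at 8 weeks, the ranges nearly coincided at 20 weeks, and HFD mice reached higher at 34 weeks. The diet difference was -0.93 ± 0.22 (adjusted p = 0.00107) at 8 weeks, 0.08 ± 0.22 (95% interval -0.36 to 0.52, adjusted p = 0.776) at 20 weeks and 0.78 ± 0.20 (adjusted p = 0.00288) at 34 weeks. At 20 weeks the sign turned with TMM scaling (-0.12) and with median-of-ratios scaling (-0.08), whereas at 8 and 34 weeks it did not. The diet difference thus changed sign from 8 to 34 weeks, by 1.71 ± 0.30 (interaction, adjusted p = 0.000111). It came with a fall in CD mice of 1.79 ± 0.20 on the log2 scale from 8 to 34 weeks (adjusted p = 1.65e-08), in 8 of 8 mice and with no overlap, while the HFD groups of 8 and 34 weeks overlapped. Closest to Mmp19 within groups were Lmna (r = 0.82), which encodes lamins A and C, Azin1 (0.80) and Ctdspl2 (0.80). The macrophage covariate left the 8 week difference at -1.15 (adjusted p = 0.000168) and took the 34 week difference to 0.50 (adjusted p = 0.148).

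Mmp9 encodes gelatinase B, a secreted enzyme known from neutrophils and macrophages. It was low, with 25 to 241 reads per mouse. Levels had a lowest, median and highest value of 2.04, 5.41 and 11.0 CPM on CD, and 1.68, 3.43 and 5.38 CPM on HFD at 8 weeks. They were 8.41, 9.24 and 17.9 CPM on CD, and 1.83, 2.17 and 3.13 CPM on HFD at 20 weeks, and 2.16, 5.33 and 10.7 CPM on CD, and 2.36, 4.16 and 6.83 CPM on HFD at 34 weeks. Only at 20 weeks were the diets apart, with every HFD mouse below every CD mouse. There the HFD minus CD difference of Mmp9 was -1.81 ± 0.32 on the log2 scale (adjusted p = 1.79e-05), against -0.54 ± 0.32 (95% interval -1.20 to 0.11, adjusted p = 0.169) at 8 weeks and -0.28 ± 0.30 (95% interval -0.90 to 0.33, adjusted p = 0.458) at 34 weeks. From 8 to 20 weeks Mmp9 changed by 0.92 ± 0.32 in CD mice (adjusted p = 0.105) and by -0.35 ± 0.32 in HFD mice (adjusted p = 0.407), neither called in limma. From 20 to 34 weeks the diet difference changed by 1.53 ± 0.44 (interaction, adjusted p = 0.0236). At 8 weeks edgeR called Mmp9 lower on HFD (-0.98, adjusted p = 0.0417), as did DESeq2 (-0.97, adjusted p = 0.0327). The macrophage covariate (-0.95, adjusted p = 0.0135) and array weights (-0.72, adjusted p = 0.0225) in limma also gave a call there. These were 4 of 49 alternatives. Closest to Mmp9 within groups were Cd209g (r = 0.71), Fcna (0.70) and Cd209f (0.69), which encode lectins known from macrophages. Cd163, a scavenger receptor of resident macrophages, also differed at 20 weeks, with 122 ± 53.1 CPM (SD) in CD and 46.8 ± 23.2 CPM in HFD mice (log2 difference -1.35, adjusted p = 0.0113). The 6 neutrophil markers summed to 2.05 to 4.97 CPM in CD and 3.05 to 8.50 CPM in HFD mice at that time. Their part and that of Cd163-bearing cells in the Mmp9 values was not tested.

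Mmp11 encodes stromelysin-3, which is activated inside the cell by furin and cuts few classical matrix proteins. It was low, with 12 to 128 reads per mouse. From lowest over median to highest, values were 2.73, 3.86 and 4.84 CPM on CD, and 0.802, 1.76 and 3.94 CPM on HFD at 8 weeks. They were 1.60, 3.48 and 5.37 CPM on CD, and 5.76, 7.58 and 9.73 CPM on HFD at 20 weeks, and 1.29, 2.75 and 7.79 CPM on CD, and 3.17, 5.66 and 7.37 CPM on HFD at 34 weeks. HFD mice tended to the low side at 8 weeks with overlap, and all lay above the CD mice at 20 weeks. The difference was -0.76 ± 0.29 (adjusted p = 0.0292) at 8 weeks, 0.97 ± 0.29 (adjusted p = 0.00432) at 20 weeks and 0.70 ± 0.27 (adjusted p = 0.0328) at 34 weeks. It changed by 1.74 ± 0.40 from 8 to 20 weeks (interaction, adjusted p = 0.0185) and by 1.47 ± 0.39 from 8 to 34 weeks (adjusted p = 0.00545). In HFD mice Mmp11 rose by 1.59 ± 0.29 (adjusted p = 0.000158) to 20 and by 1.18 ± 0.29 (adjusted p = 0.00091) to 34 weeks. The 8 week call was lost without CD mouse 3, 5 or 6 or HFD mouse 1, 2 or 6 (differences -0.64 to -0.75), and the 34 week call without CD mouse 4, 6 or 8 or HFD mouse 2, 3, 4 or 6 (0.59 to 0.72) and with edgeR (0.61, adjusted p = 0.137). DESeq2 (adjusted p = 0.13), each time fitted alone (0.124), the replicate block (0.0636) and array weights (0.0807) also ended the 34 week call. With no filter both the 8 week (adjusted p = 0.0509) and the 34 week call (0.0529) were lost. With the macrophage covariate the diet difference was -1.02 (adjusted p = 0.00634) at 8 weeks, and the calls at 20 weeks (0.59, adjusted p = 0.147) and 34 weeks (0.37, adjusted p = 0.468) were lost, as was that for 34 against 8 weeks on HFD (0.75, adjusted p = 0.0876). Closest within groups were Ap1g2 (r = 0.77), Rabggta (0.72) and Reep4 (0.71).

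**Figure D2:**
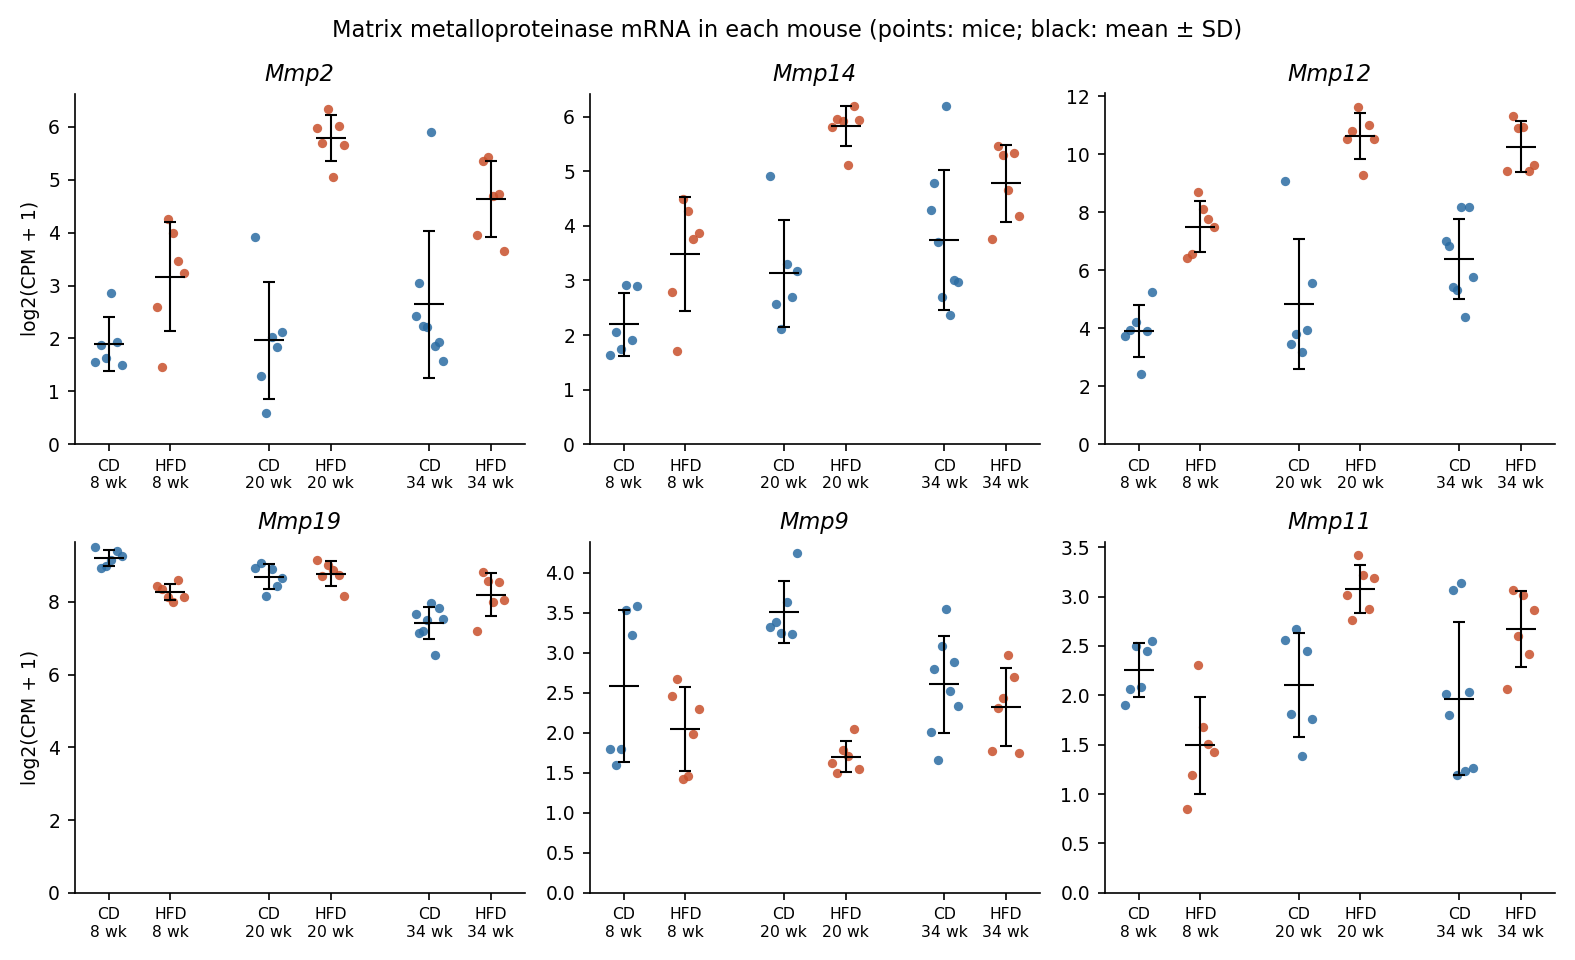
Log2(CPM + 1) of the 6 MMPs in each of 38 mice by diet and weeks on diet; points are mice, black bars the group mean with its SD. Mmp12 lies higher in all HFD than in all CD mice at each time, Mmp9 lower in all HFD mice at 20 weeks, and CD mouse 5 at 34 weeks reaches 59.1 CPM of Mmp2 and 71.9 CPM of Mmp14.

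Of the inhibitors, Timp2, the TIMP that joins MMP14 in activating the MMP2 proenzyme, was higher on HFD at each time. Its lowest, median and highest values were 18.4, 31.9 and 55.7 CPM on CD, and 68.9, 105 and 187 CPM on HFD at 8 weeks. They were 32.4, 53.5 and 135 CPM on CD, and 268, 427 and 506 CPM on HFD at 20 weeks, and 75.2, 174 and 821 CPM on CD, and 256, 568 and 832 CPM on HFD at 34 weeks. The diets were apart at 8 and 20 weeks and overlapped at 34 weeks. The difference was 1.77 ± 0.41 (adjusted p = 0.000903) at 8 weeks, 2.70 ± 0.41 (adjusted p = 1.66e-06) at 20 weeks and 1.37 ± 0.38 (adjusted p = 0.00455) at 34 weeks, and without both CD mice that stand apart 2.93 at 20 and 1.66 at 34 weeks. Timp2 also rose from 8 to 34 weeks in both diets. In CD mice it rose by 2.66 ± 0.38 (adjusted p = 6.07e-07) from 8 to 34 weeks, in 8 of 8 mice with no overlap. With 1 mouse left out this rise was 2.36 to 2.85. In HFD mice it rose by 1.90 ± 0.41 (adjusted p = 0.000725) to 20 and by 2.26 ± 0.41 (adjusted p = 3.62e-05) to 34 weeks, in 6 of 6 mice each. Closest to Timp2 within groups were Evi2a, Ehd4 and Cd37 (r = 0.96 each), of which Cd37 encodes a tetraspanin of leukocytes. The macrophage covariate took the difference to 0.79 at 8, 1.24 at 20 and 0.10 at 34 weeks, with adjusted p of 4.44e-05, 4.22e-07 and 0.715. Between times it left Timp2 called, at 1.32 for 34 against 8 weeks on CD and at 0.52 and 0.62 for 20 and 34 against 8 weeks on HFD.

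Timp3 is the inhibitor that binds to the matrix and also blocks ADAM17 and several aggrecan-cutting ADAMTS proteases. The lowest, median and highest mouse had 17.7, 51.7 and 114 CPM on CD, and 43.2, 82.9 and 128 CPM on HFD at 8 weeks. They were 20.3, 57.9 and 86.7 CPM on CD, and 73.8, 110.1 and 149.8 CPM on HFD at 20 weeks, and 27.2, 40.0 and 61.7 CPM on CD, and 32.2, 72.1 and 152 CPM on HFD at 34 weeks. Diets overlapped at each time. HFD mice were higher by 0.69 ± 0.35 (95% interval -0.03 to 1.41, adjusted p = 0.113) at 8 weeks, 1.02 ± 0.35 (adjusted p = 0.0145) at 20 weeks and 0.82 ± 0.33 (adjusted p = 0.0449) at 34 weeks, where only the latter 2 were called. The 20 week call was lost without CD mouse 3 (0.75, adjusted p = 0.0669) and with edgeR (0.75, adjusted p = 0.0585). The 34 week call was lost with TMM scaling (0.72, adjusted p = 0.0699) and without any of CD mice 1, 3, 5, 6 and 7 or HFD mice 2, 3, 4 and 6 (0.61 to 0.84, adjusted p of up to 0.159). Array weights took the 34 week value to 0.31 (adjusted p = 0.564), and the macrophage covariate ended both calls (0.79, adjusted p = 0.135, and 0.62, adjusted p = 0.331). Closest to Timp3 within groups were Flt1 (r = 0.91), which encodes a VEGF receptor of endothelial cells, Ablim3 (0.89) and Aqp1 (0.88), a water channel also found in capillaries. The 5 endothelial markers summed to 23.1 to 193 and 61.7 to 316 CPM in CD and HFD mice at 8 weeks, 31.9 to 123 and 119 to 326 CPM at 20 weeks, and 40.6 to 109 and 84.2 to 351 CPM at 34 weeks. Their part in the Timp3 values was not tested.

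Timp4 is the TIMP with the most restricted tissue distribution and is known from fat, heart and brain. Levels had a lowest, median and highest value of 199.5, 332 and 457 CPM on CD, and 204, 308 and 430.5 CPM on HFD at 8 weeks. They were 156, 204 and 312 CPM on CD, and 154, 195 and 232 CPM on HFD at 20 weeks, and 62.0, 389.7 and 522 CPM on CD, and 72.4, 90.0 and 232 CPM on HFD at 34 weeks. At 8 and 20 weeks the diets covered the same range, and at 34 weeks only CD mouse 5, at 62.0 CPM, lay below the HFD mice, while the other 7 lay above them all with 327 to 522 CPM. The difference was -0.08 ± 0.33 (95% interval -0.76 to 0.60, adjusted p = 0.856) at 8 weeks and -0.09 ± 0.33 (95% interval -0.77 to 0.59, adjusted p = 0.83) at 20 weeks. At 34 weeks Timp4 fell on HFD by 1.55 ± 0.31 on the log2 scale (adjusted p = 0.000318), in 6 of 6 HFD mice against the CD mean, and by 1.88 without the mice that stand apart. The diet difference at 34 weeks differed from that at 8 weeks by -1.47 ± 0.46 (interaction, adjusted p = 0.0159) and from that at 20 weeks by -1.46 ± 0.46 (adjusted p = 0.0365). The latter call was lost in 12 of 38 runs without 1 mouse (adjusted p of up to 0.0669), with no filter (adjusted p = 0.0598) and with TMM scaling (-1.35, adjusted p = 0.0542). From 8 to 34 weeks HFD mice fell by 1.43 ± 0.33 on the log2 scale (adjusted p = 0.000641). Among the closest to Timp4 within groups were Atp6v0e2 (r = 0.91) and Zfand3 (0.83), and it varied against Timp2 (r = -0.58) and Mmp2 (r = -0.58). Of the 8 adipocyte markers 7 were called lower on HFD at 34 weeks (15.7% of all genes tested were). Their part in the Timp4 values was not tested. With the macrophage covariate the 34 week difference was -0.93 (adjusted p = 0.0479) and the HFD fall from 8 to 34 weeks was no longer called (-0.63, adjusted p = 0.163).

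Timp1, the inducible inhibitor released by many cells in inflammation, showed no called diet difference. From lowest over median to highest, values were 3.89, 5.68 and 84.5 CPM on CD, and 2.95, 9.83 and 16.2 CPM on HFD at 8 weeks. They were 12.7, 17.0 and 36.7 CPM on CD, and 11.7, 26.6 and 38.6 CPM on HFD at 20 weeks, and 1.27, 12.9 and 24.7 CPM on CD, and 4.11, 9.61 and 11.3 CPM on HFD at 34 weeks. The diets overlapped at each time, and the 84.5 CPM of CD mouse 6 at 8 weeks stood far above the 3.89 to 12.6 CPM of the other 5. The differences were -0.10 ± 0.57 (95% interval -1.26 to 1.07, adjusted p = 0.902), 0.40 ± 0.57 (-0.76 to 1.57, adjusted p = 0.565) and -0.05 ± 0.54 (-1.14 to 1.04, adjusted p = 0.948) at 8, 20 and 34 weeks. In HFD mice it rose by 1.43 ± 0.57 from 8 to 20 weeks (adjusted p = 0.0485), a call that 23 of 38 runs without 1 mouse lost (1.17 to 1.47, adjusted p of up to 0.125), as did the macrophage covariate (0.23, adjusted p = 0.859). Closest to Timp1 within groups were Ifitm3 (r = 0.82), an interferon-induced gene, Il1rn (0.81) and Clec4d (0.80), both known from activated myeloid cells.

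**Figure D3:**
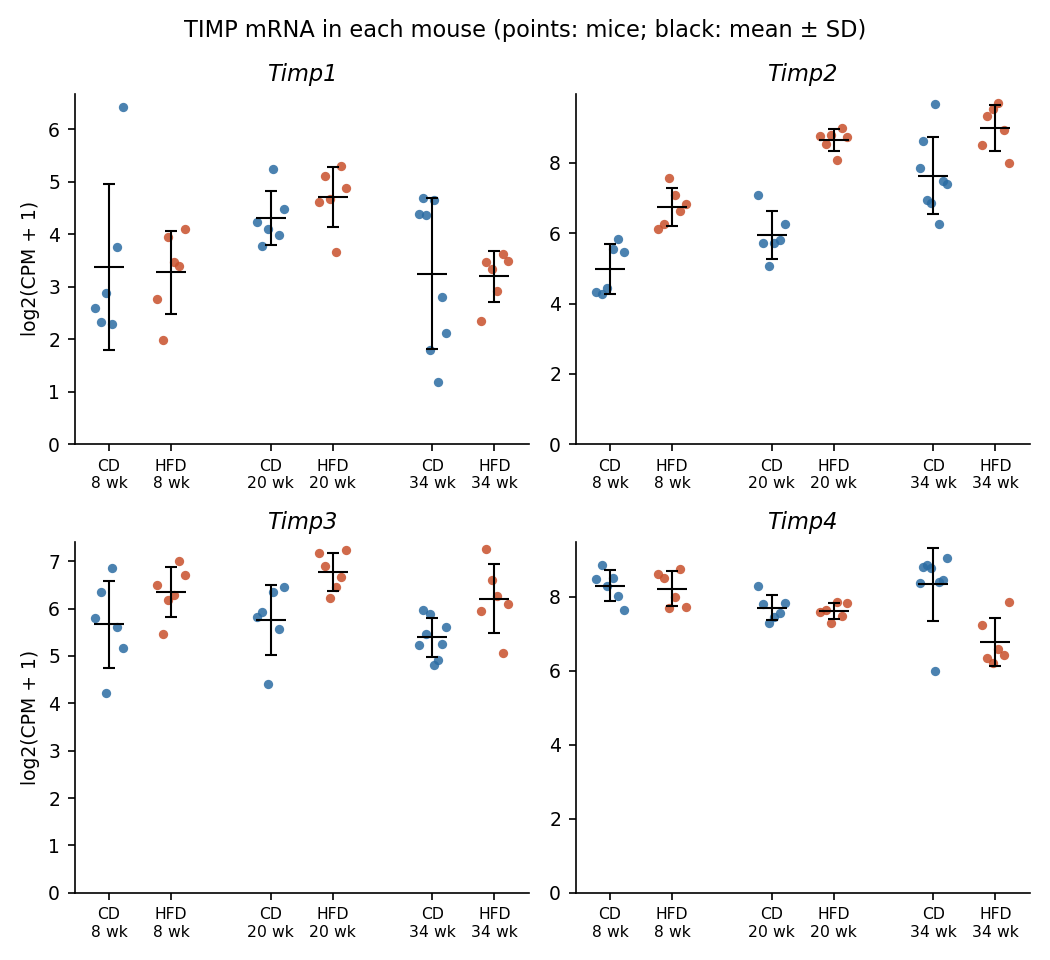
Log2(CPM + 1) of the 4 TIMPs in each of 38 mice by diet and weeks on diet; points are mice, black bars the group mean with its SD. Timp2 is higher at 34 than at 8 weeks in both diets, Timp4 is lower on HFD at 34 weeks except for CD mouse 5 at 62.0 CPM, and CD mouse 6 at 8 weeks reaches 84.5 CPM of Timp1.

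Set against each other per kilobase of exon (GENCODE vM21 models), the genes changed order between diets. The reads had been counted on an earlier GENCODE release. Orders of genes, shares and ratios thus rest on lengths that may not match the counting. In CD mice Mmp19 was the highest at 8 weeks with a median of 167 CPM per kb, followed by Timp4 with 56.3 and Timp2 with 8.20, and the ranges of the first 3 did not overlap. From Timp2 down to Mmp14, with a median of 0.498 CPM per kb, the ranges of neighbours overlapped. In HFD mice at 20 weeks Mmp12 was first with 225, then Mmp19 with 127, Timp2 with 109.7 and Timp4 with 33.0 CPM per kb, and the first 3 overlapped with their neighbours while Timp4 lay below Timp2 in all mice. At 34 weeks Timp4 (66.1), Mmp19 (51.4) and Timp2 (44.6) led in CD mice and Mmp12 (185), Timp2 (146) and Mmp19 (90.1 CPM per kb) in HFD mice, each with ranges that overlapped their neighbour, except for the step from Mmp19 to Timp4 (15.3) in HFD mice. Mmp9 was last in HFD mice at 20 and 34 weeks, with 0.613 and 1.18 CPM per kb.

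As a share of the summed CPM per kb of the 6 MMPs, Mmp12 made up a median of 1.19% (0.359 to 2.73%) in CD and 21.4% (10.2 to 38.7%) in HFD mice at 8 weeks. At 20 weeks it was 1.98% (0.779 to 33.1%) and 63.5% (35.9 to 70.6%), and at 34 weeks 16.7% (8.61 to 36.9%) and 66.1% (43.6 to 75.5%). Timp2 made up 7.76%, 19.5% and 35.1% of the summed TIMPs on CD at 8, 20 and 34 weeks as medians, against 26.0%, 57.0% and 79.6% on HFD. Summed TIMPs over summed MMPs gave a median of 0.498 in CD and 0.841 in HFD mice at 8 weeks, 0.642 and 0.484 at 20 weeks, and 2.05 and 0.667 at 34 weeks. At 34 weeks the ratio was 1.07 to 3.30 in CD and 0.420 to 0.915 in HFD mice, without overlap. These are ratios of mRNA levels and were described, not tested.

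**Figure D4:**
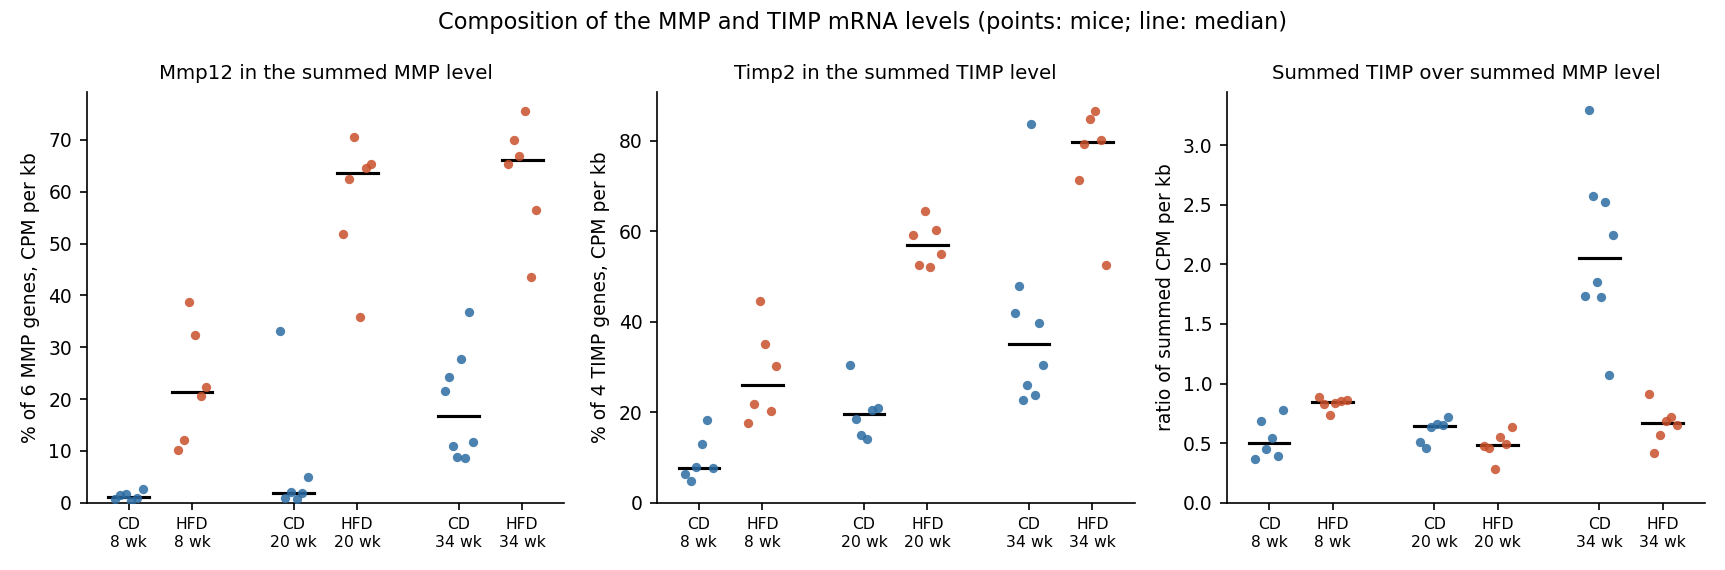
Share of Mmp12 in the summed MMP level, share of Timp2 in the summed TIMP level, both in percent, and the ratio of the summed TIMP to the summed MMP level, all from CPM per kb of exon; points are mice and lines medians. The Mmp12 share has medians of 63.5% and 66.1% in HFD mice at 20 and 34 weeks, and the ratio is highest in CD mice at 34 weeks, with a median of 2.05.

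Between times, 0 of 10 members were called by limma in CD mice from 8 to 20 weeks (3 at an unadjusted p under 0.05, 0 with edgeR and 1 with DESeq2), where 3.58% of all genes were called. From 8 to 34 weeks 4 of 10 were called in CD mice, 3 higher and 1 lower, against 64.7% of all genes. In HFD mice 6 of 10 were called from 8 to 20 weeks, all higher, against 36.5%, and 6 of 10 from 8 to 34 weeks, 5 higher and 1 lower, against 52.5%. The diet difference itself differed for 2 members from 8 to 20 weeks (4.49% of all genes), 3 from 8 to 34 weeks (28.8%) and 2 from 20 to 34 weeks (10.5%), the genes named above for these tests and Mmp2, whose difference grew by 2.55 ± 0.76 from 8 to 20 weeks (adjusted p = 0.0458). That call was lost in 22 of 38 runs without 1 mouse (adjusted p of up to 0.0965) and with edgeR (1.98, adjusted p = 0.178). Diet differences of Mmp12, Mmp14 and Timp2 changed by 2.19 ± 1.01, 1.41 ± 0.71 and 0.93 ± 0.57 from 8 to 20 weeks (adjusted p = 0.158, 0.194 and 0.28), and from 20 to 34 weeks by -1.91 ± 0.98, -1.67 ± 0.69 and -1.33 ± 0.56 (adjusted p = 0.2, 0.111 and 0.114), none called. Mmp2 changed by -1.83 ± 0.73 from 20 to 34 weeks (adjusted p = 0.0977). Without both CD mice that stand apart, 6 members were called from 8 to 20 weeks and 5 from 20 to 34 weeks, with Mmp12 at 3.03 (adjusted p = 0.00882) and -2.50 (adjusted p = 0.0223), and 20 week CD mouse 1 alone moved the counts to 4 and 5. Over all 48 alternatives these Mmp12 changes ranged from 0.41 to 3.03 and from -3.05 to -0.46. Only 3 of 48 called each of them, and adjusted p reached 0.825 and 0.813. TMM scaling moved the share of higher genes among all calls from 62.0% to 51.0% and from 60.4% to 48.8% for 34 against 8 weeks in CD and HFD mice, and from 62.7% to 49.1% and from 40.0% to 62.2% for the change of the diet difference from 8 to 20 and from 20 to 34 weeks. The age comparisons share their 8 week groups with the diet comparison at 8 weeks, and the interactions share groups with each other.

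**Figure D5:**
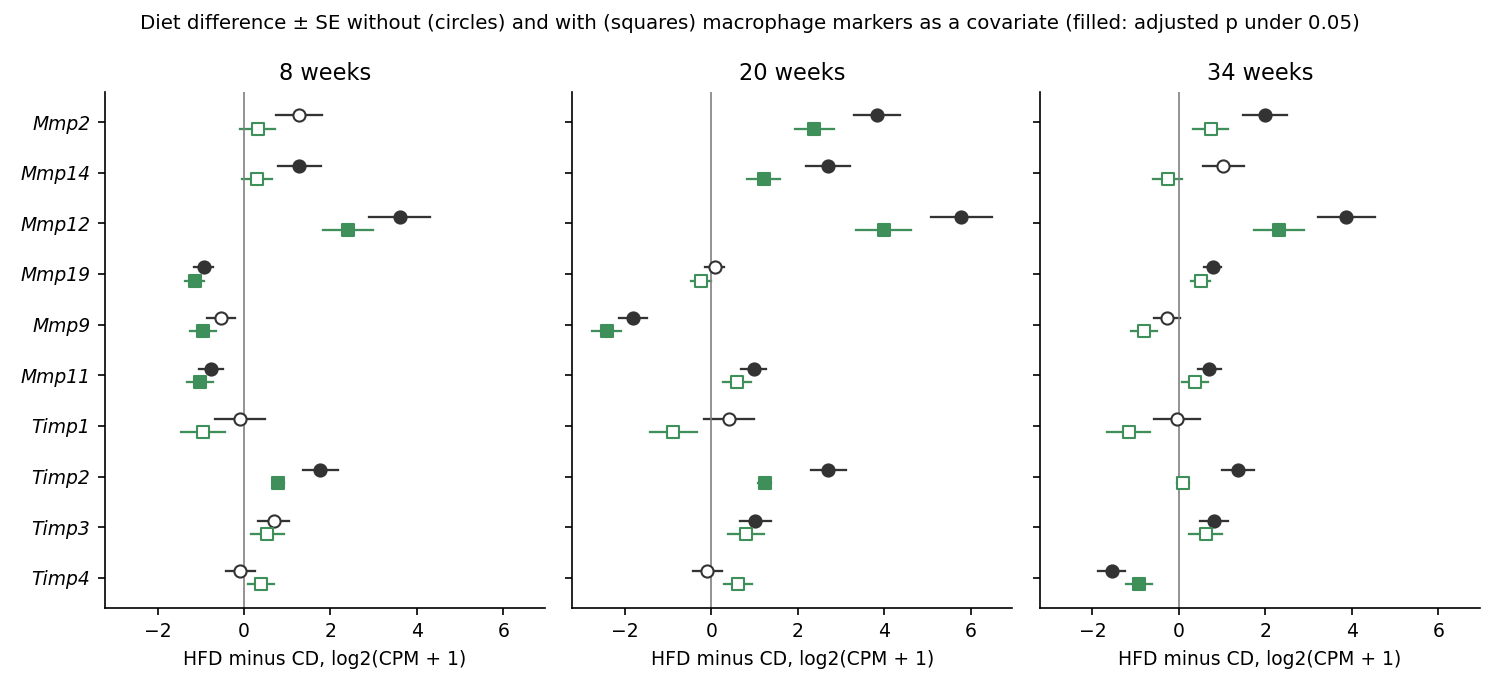
HFD minus CD difference of each gene in log2(CPM + 1) with its SE at 8, 20 and 34 weeks, without (circles) and with (squares) the mean level of 9 macrophage markers as a covariate; filled symbols have an adjusted p under 0.05. Timp2 at 34 weeks lies at 1.37 without and 0.10 with the covariate, and Mmp12 at 3.88 without and 2.32 with it. The 9 markers include none of the lipid-associated macrophage markers.

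The other genes of the pathway were taken from lists. Of all genes tested, 29.8%, 38.3% and 27.5% were called higher on HFD at 8, 20 and 34 weeks. The shares called lower were 15.1%, 18.7% and 15.7%. Of 17 other MMPs, 3 had no read in any mouse and 4 passed the filter, of which 3 were higher and 1 lower on HFD at 20 weeks. Mmp13, interstitial collagenase of rodents, had 3.34 ± 2.65 CPM in CD and 32.5 ± 14.8 CPM in HFD mice at 20 weeks (log2 difference 2.99, adjusted p = 1.71e-07), and was also called higher at 8 (1.01) and 34 weeks (1.82). Its means were 0.459 CPM on CD and 1.98 CPM on HFD at 8 weeks, and 1.57 and 7.02 CPM at 34 weeks. It passed the filter mainly through the HFD mice of 20 and 34 weeks. Its place among the genes tested is thus not independent of its diet difference. Mmp28, epilysin, had 74.3 ± 15.0 CPM in CD and 47.2 ± 5.20 CPM in HFD mice at 20 weeks (-0.62, adjusted p = 0.00159) and was also called lower at 34 weeks (-0.65). Of 15 ADAM and ADAMTS proteases tested, 7 were higher and 2 lower at 20 weeks, with Adam8, a leukocyte sheddase, at 32.1 ± 56.4 CPM in CD and 492 ± 129 CPM in HFD mice (4.96, adjusted p = 1.86e-07) and Adamts12 lower by -0.88 (adjusted p = 0.00354). Of 5 genes of plasminogen activation tested, 3 were higher at 20 weeks, with Plaur, the urokinase receptor, at 38.04 ± 19.5 in CD and 147 ± 37.5 CPM in HFD mice (2.03, adjusted p = 0.000692).

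Among 9 partners in MMP activation, binding and clearance, 7 were higher on HFD at 20 weeks, 4 at 8 weeks and 4 at 34 weeks, with 1 lower at 34 weeks. Mrc2, an endocytic receptor for collagen, led at 20 weeks with 4.68 ± 4.87 CPM in CD and 106 ± 43.3 CPM in HFD mice (4.44, adjusted p = 4.09e-06). Of 13 matrix substrates tested, 8, 11 and 3 were higher on HFD at 8, 20 and 34 weeks and none was lower. Over all genes tested the shares called higher were 29.8%, 38.3% and 27.5% at these times. Col1a1, a chain of type I collagen, led at 20 weeks, with 18.1 ± 17.4 and 202 ± 80.3 CPM (3.66, adjusted p = 1.60e-06). At 34 weeks it had 182 ± 167 CPM in CD and 143 ± 42.1 CPM in HFD mice (0.14, adjusted p = 0.845). The list medians at 20 weeks were 1.45 for other MMPs, 0.45 for ADAM and ADAMTS proteases, 1.75 for plasminogen activation, 0.77 for partners and 1.99 for substrates, beside 0.14 for all genes tested. Of the synapsin genes beside the TIMPs only Syn2 passed the filter, and it was not called at any time.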

How the data were processed

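RNA-seq of adipocytes from 38 mice was analysed. The 114 labelled samples are 3 technical replicates per mouse, merged by the authors into 1 column per mouse. Per the labels and methods, reads of a stranded poly(A) library were aligned to mm10 (GRCm38) with STAR 2.5.2b and counted on the exon union of GENCODE vM2 genes with featureCounts (Subread 1.5.1). The deposited values are CPM made by the authors. Each column sums to 1000000, so no TMM factor is visible, and 100% of values are whole reads within 0.1 reads, which were used as counts in the alternatives. Depth bounds counting error only.

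Values were taken as log2(CPM + 1). The 10343 genes with a mean above 2.0 were fitted with limma 3.58.1 (R 4.3.3), all 6 groups together with the mean-variance trend and 32 residual degrees of freedom. Tests were two-sided with Benjamini-Hochberg adjustment over all genes tested and a threshold of 0.05. The planned exact test for members below the filter was not needed. Within-group pairs of mice were distinct libraries (chi-square per degree of freedom of at least 9.99 in 103 pairs). Genes with similar variation are the 3 with the highest Pearson correlation of deviations from group means. For Timp4, 1 of them is not reported here. In lists, the called genes with the largest rise and fall at 20 weeks are named. Members and lists were chosen with earlier results of these data known. Alternatives were pseudocount 0.25, no filter, TMM and median-of-ratios scaling, edgeR 4.0.16 and DESeq2 1.42.0 on whole reads, each time alone, a replicate block, array weights, a macrophage covariate, 1 mouse left out, and, chosen after seeing the data, both CD mice that stand apart left out. Depth ranged from 9275711 to 15480388 reads on genes.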

Additional observations from a re-analysis of the deposited data

Results flagged for a closer look

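In single mice, the gap of the highest or lowest mouse to the nearest other, as a share of the range of its group on the log2(CPM + 1) scale, was beyond Dixon's 95% critical value in 5 of 60 combinations of gene and group, and chance alone gives about 1 in 20. CD mouse 4 at 8 weeks was high for Mmp2 (0.677; 6.30 CPM against 1.82 to 2.84 in the others). CD mouse 6 at 8 weeks was high for Timp1 (0.644; 84.5 against 3.89 to 12.6 CPM). HFD mouse 4 at 20 weeks was low for Mmp14 (0.643; 33.8 against 55.2 to 72.3 CPM). CD mouse 5 at 34 weeks was high for Mmp2 (0.662; 59.1 against 1.97 to 7.22 CPM) and low for Timp4 (0.779; 62.0 against 327 to 522 CPM). The same mouse had 29720 CPM of adipocyte markers against 35590 to 61340 in the other CD mice of 34 weeks, and 3974 CPM of macrophage markers against 395 to 1978. The part of these in its values was not tested.

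The diet difference differed between times, by the interaction in limma, for Mmp11 (1.74 from 8 to 20 weeks and 1.47 from 8 to 34 weeks), Mmp2 (2.55 from 8 to 20 weeks), Mmp19 (1.71 from 8 to 34 weeks), Timp4 (-1.47 from 8 to 34 weeks and -1.46 from 20 to 34 weeks) and Mmp9 (1.53 from 20 to 34 weeks). For Mmp19 and Mmp11 the diet difference had opposite signs at 8 and 34 weeks, each called in the main fit. The Mmp19 calls at 8 and 34 weeks held in 49 and 48 of 49 alternatives. Those of Mmp11 held in 41 and 34 of 48.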

How the results depend on the processing

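Repeats were made for 60 values of single genes, of which 42 were called. They hold every diet difference at each time. From the other comparisons they hold the called values and some uncalled changes of the diet difference. As values entered partly because they were called, 42 of 60 is not a rate of calls. Under the other settings 377 of 432 repeats of the called values kept their direction and call, 53 lost the call and 2 turned sign, and with 1 mouse left out 1501 of 1596 kept both, 95 lost the call and 0 turned sign. For the uncalled values, 149 of 191 repeats were unchanged, 28 became calls and 14 turned sign under the other settings, and 651, 19 and 14 of 684 with 1 mouse left out.

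The count of genes called at 8 weeks was 3 with no filter and 8 with array weights. At 34 weeks it was 2 with the macrophage covariate. For 20 against 8 weeks in CD mice it was 1 with DESeq2, 4 with array weights and 1 with the covariate, and in HFD mice the covariate gave 2 for 20 and 2 for 34 against 8 weeks. For the change of the diet difference from 8 to 20 weeks it was 0 with pseudocount 0.25, 1 with no filter, 1 with edgeR, 1 with the replicate block, 7 with array weights, 4 with the covariate and 6 with both CD mice that stand apart left out. From 20 to 34 weeks it was 1 with no filter, 1 with TMM, 1 with the replicate block, 4 with DESeq2, 7 with array weights, 5 with the covariate and 5 with both CD mice left out. With 1 mouse left out the counts ranged from 3 to 7 at 8 weeks, 6 to 7 at 20 weeks and 5 to 8 at 34 weeks, from 0 to 1 for 20 against 8 weeks in CD mice, 5 to 7 in HFD mice and 4 to 6 for 34 against 8 weeks in HFD mice, and from 1 to 4 and from 1 to 5 for the change of the diet difference to 20 and from 20 to 34 weeks.

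Signs turned for Timp1 at 8 weeks (0.42, array weights), Mmp9 at 34 weeks (0.11, array weights), Mmp19 at 20 weeks (-0.12 with TMM, -0.0793 with median-of-ratios, -0.11 with edgeR, -0.0728 with DESeq2), Timp1 at 34 weeks (0.0133 with pseudocount 0.25, 0.1485 with both CD mice left out) and Timp4 at 20 weeks (0.0252 with both CD mice left out). With the covariate they turned for Timp4 at 8 (0.39) and 20 weeks (0.62), Mmp19 (-0.24) and Timp1 (-0.88) at 20 weeks, Mmp14 at 34 weeks (-0.26), and Mmp2 (-0.15) and Mmp14 (-0.37) for 34 against 8 weeks in HFD mice. With 1 mouse left out Timp1 ranged from -0.314 to 0.512 at 8 and from -0.346 to 0.154 at 34 weeks, Timp4 from -0.212 to 0.0263 at 8 and from -0.173 to 0.0252 at 20 weeks, and Mmp19 from -0.0278 to 0.202 at 20 weeks. The cause was not tested.

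Mouse numbers did not pair the diets: 8 of 18 same-numbered pairs correlated above 0.1 (-0.51 to 0.53), and 2 of 18 HFD mice were closest to the CD mouse of their number. With the replicate block the calls of Mmp14 at 8 weeks (adjusted p = 0.0511), Mmp11 (0.0636) and Timp3 (0.0532) at 34 weeks, Timp1 for 20 against 8 weeks in HFD mice (0.0569), and the change of Mmp2 to 20 (0.0577) and of Timp4 from 20 to 34 weeks (0.0658) were lost in limma.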
